A study of Mus musculus with 15 samples.

Results

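The genes described here are the subunits of the glutamate and GABA receptors, the 45 protein-coding genes whose mouse GRCm38 symbol belongs to the AMPA (Gria), NMDA (Grin), kainate (Grik), delta (Grid), metabotropic glutamate (Grm), GABA-A (Gabr) or GABA-B (Gabbr) families. All 45 were found by Ensembl identifier among the 33223 genes listed in the count tables. Bulk RNA was sequenced from the injured side of the mouse cortex 1 day after a moderate controlled cortical impact, in which a piston strikes the exposed brain. Dissociated cells were run over beads against CD45 and CD31. Libraries were made from the CD45 fraction, labelled as immune cells, and from the flow-through, the cells that passed the beads. Mice were EphA4f/f-VeCadCreERT2 knockouts (KO), in which an inducible Cre under the vascular endothelial cadherin promoter removes EphA4 from endothelial cells, or EphA4f/f mice without that Cre, called wild type (WT) in the labels. The fits used 3 KO and 4 WT libraries of the flow-through and 4 KO and 3 WT libraries of the CD45 fraction.

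Every mouse carried the floxed EphA4 alleles and every cortex was injured, so no group stands for intact tissue. The labels give no ages and name no animals. The p-values therefore reflect how these libraries vary, which may be partly technical, and both fractions may share animals. Libraries held 11574414 to 31337948 counts. Epha4 itself was at 39.3 ± 2.75 CPM in the flow-through of KO mice and at 41.2 ± 2.89 CPM in that of WT mice (SD, n = 3 and 4), a difference of -0.07 log2 units (adjusted p = 0.849 by edgeR). Because neither fraction is an endothelial isolate, this does not check the deletion. The 10 leukocyte markers summed to 11.1 to 18.8 CPM in flow-through libraries and 12189 to 15468 CPM in CD45 libraries. The 10 endothelial markers summed to 43.6 to 66.2 CPM in flow-through libraries and 305 to 534 CPM in CD45 libraries, all 10 were lower in the flow-through (edgeR), and none passed for genotype in either fraction. The odd library, labelled flow-through WT and here called replicate 5, was deposited among the CD45 columns. It had 12635 CPM of the leukocyte markers and 132 CPM of receptor subunits, against 1018 to 1213 CPM of subunits in the other flow-through libraries. It was left out of the fits.

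Glutamate is the main excitatory transmitter of the cortex and GABA the main inhibitory one. AMPA, NMDA, kainate and GABA-A receptors are ion channels built from several subunits, so that the subunit mix sets their kinetics and pharmacology, whereas metabotropic glutamate and GABA-B receptors signal through G proteins. NMDA receptors require the subunit of Grin1 with partners of the Grin2 or Grin3 genes, and GABA-B receptors join the products of Gabbr1 and Gabbr2. Neurons carry most of these receptors, and astrocytes and oligodendrocyte precursors carry some of them.

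In the flow-through, Grin1, Gabbr2 and Gabra3 rose in KO libraries and no subunit fell (edgeR quasi-likelihood test, Benjamini-Hochberg adjusted p under 0.05). Their promoters are shown because these are the members called in the same direction. Each window runs from 250 bases before to 50 after a transcription start in RefSeq (GRCm38.p6) and is written 5′ to 3′ on the gene's own strand. Capitals mark the motifs, each searched on both strands. The GC box was spelled GGGCGG. An E box was searched as the palindrome CACGTG. The core promoter element named TATA box was searched as TATAAA. The Grin1 window is chr2:25319138-25319437, the Gabbr2 window chr4:46991665-46991964 and the Gabra3 window chrX:72656870-72657169, all on the minus strand.
Grin1: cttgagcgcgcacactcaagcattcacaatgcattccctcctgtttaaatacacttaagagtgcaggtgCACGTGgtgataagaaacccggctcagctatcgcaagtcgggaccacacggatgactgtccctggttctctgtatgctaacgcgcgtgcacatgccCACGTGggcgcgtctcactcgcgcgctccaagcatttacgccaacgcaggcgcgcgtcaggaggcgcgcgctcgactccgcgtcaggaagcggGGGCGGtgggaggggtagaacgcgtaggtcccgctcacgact
Gabbr2: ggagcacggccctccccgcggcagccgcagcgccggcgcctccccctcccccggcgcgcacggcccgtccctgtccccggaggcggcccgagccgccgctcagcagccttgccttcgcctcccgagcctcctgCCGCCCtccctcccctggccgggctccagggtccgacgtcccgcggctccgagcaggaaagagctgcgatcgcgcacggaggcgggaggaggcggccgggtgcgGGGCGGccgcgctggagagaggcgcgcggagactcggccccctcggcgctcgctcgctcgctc
Gabra3: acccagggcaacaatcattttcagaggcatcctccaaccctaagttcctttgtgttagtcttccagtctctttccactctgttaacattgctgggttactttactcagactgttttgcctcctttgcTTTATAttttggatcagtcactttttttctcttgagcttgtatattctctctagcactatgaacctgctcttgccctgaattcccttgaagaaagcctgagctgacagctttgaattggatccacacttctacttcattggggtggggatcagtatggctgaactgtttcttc
The Grin1 window held 2 E boxes and 1 GC box, and the Gabbr2 window held 2 GC boxes. The Gabra3 window held 1 TATAAA match. It lies on the strand opposite to the gene, so it is written TTTATA. It stands near the middle of the 250 bases before the start, and its use as a core promoter element was not tested. A second, overlapping Gabra3 window (chrX:72656758-72657057, 39.3% GC) held the same match and is not shown. The Gabra3 window shown held no CpG, against 33 CpG in the Grin1 window and 46 in the Gabbr2 window. GC content was 60.7% for Grin1, 80.3% for Gabbr2 and 43.0% for Gabra3, and no motif was present in all 3. Over 32851 promoter windows, 35.7% held the GC box, 7.15% the E box and 13.6% the TATA box, and 30 of the 45 members had a window in the table.

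Grin1 (chromosome 2, 25291181 to 25319187, GRCm38) was measured at 36.1, 27.8 and 34.6 CPM in the KO flow-through libraries, against 23.0, 17.7, 16.1 and 16.4 CPM in the WT libraries. Every KO library lay above every WT library, and the log2 fold change was 0.85 (SE 0.13, adjusted p = 0.0057 by edgeR). CPM, the count scaled to the library total, includes TMM scaling within the fraction here. Of the exon bases of Grin1, 13.5% are shared with Grin1os on the opposite strand, which had 1 to 3 counts in KO and 2 to 6 in WT libraries, and without a stated strand setting the reads of the shared bases cannot be told apart.

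Gabbr2 (chromosome 4, 46662305 to 46991873) encodes the GABA-B subunit that couples to the G protein. It was measured at 64.9, 57.3 and 73.3 CPM in KO libraries, against 48.7, 38.2, 34.6 and 33.4 CPM in WT libraries, a change of 0.75 log2 units (SE 0.13, adjusted p = 0.0116 by edgeR). The groups did not overlap. Its partner Gabbr1, which binds GABA, was at 260, 237 and 317 CPM in KO and 269, 221, 240 and 212 CPM in WT libraries. These ranges overlapped, and Gabbr1 did not pass (change of 0.21 log2 units, SE 0.11, adjusted p = 0.560 by edgeR).

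Gabra3 (chromosome X, 72432681 to 72656848), an alpha subunit of GABA-A receptors, was measured at 14.9, 14.8 and 11.5 CPM in KO and 10.4, 7.87, 7.39 and 8.78 CPM in WT libraries. The lowest KO library was just above the highest WT library, and the log2 fold change was 0.67 (SE 0.15, adjusted p = 0.0416 by edgeR).

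**Figure D1:**
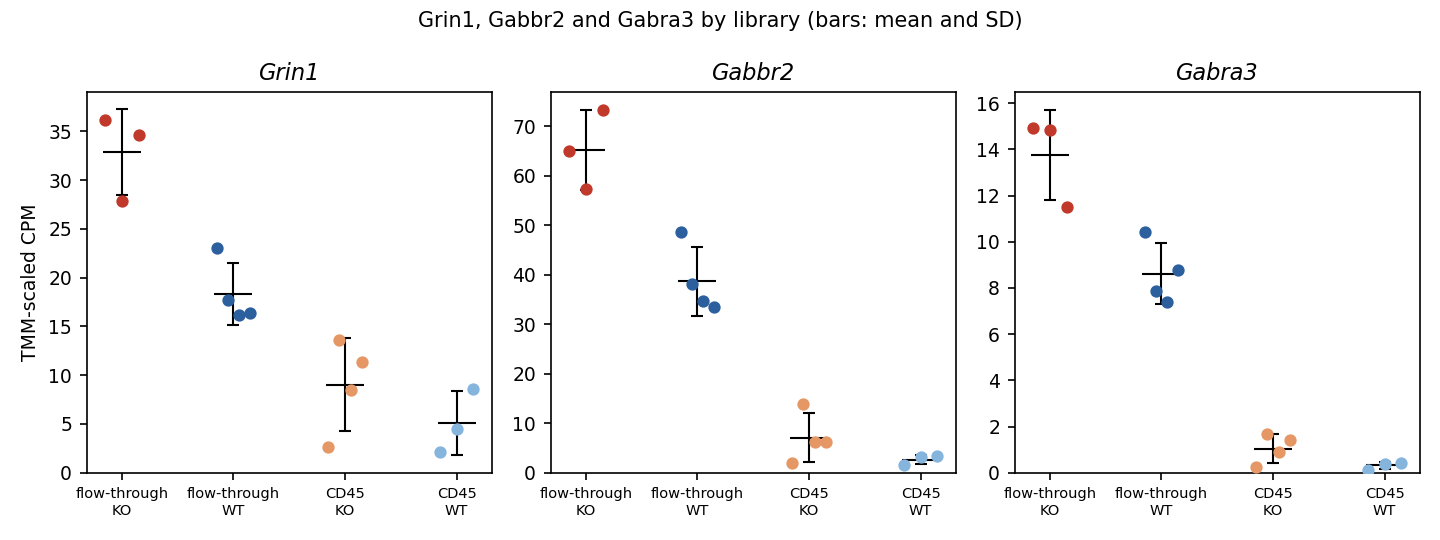
TMM-scaled CPM of Grin1, Gabbr2 and Gabra3 in each library, with the mean and SD of each group as bars. In the flow-through the 3 KO libraries lie above the 4 WT libraries for each gene, and in the CD45 fraction the groups overlap.

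The test covered 40 of the 45 members in the flow-through. Gabra6, Gabrr1, Gabrr3, Grin3b and Grm6 were too low to be tested. The 3 higher members compare with 1.42% of all 16546 genes tested called higher, and 0 lower members with 0.151% called lower. The log2 fold change was above 0 for 32 of the 40 members, against 48.3% of all genes, and its median was 0.20 against -0.0074 over all genes. At an unadjusted p under 0.05 there were 12 members, all higher, where 6.76% of all genes were higher at that level. In 11 members every KO library lay above every WT library, which held for 6.62% of all genes, and no member had every KO library below (4.90% of all genes). DESeq2 called 5 members higher, Gria1 among them, and none lower. Over all 15719 genes to which it gave an adjusted p, it called 355 higher and 65 lower. Library KO replicate 1 was the highest of the 7 for 19 of the 40 members. The share over all genes is not given, so whether this is particular to the subunits is not known.

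**Figure D2:**
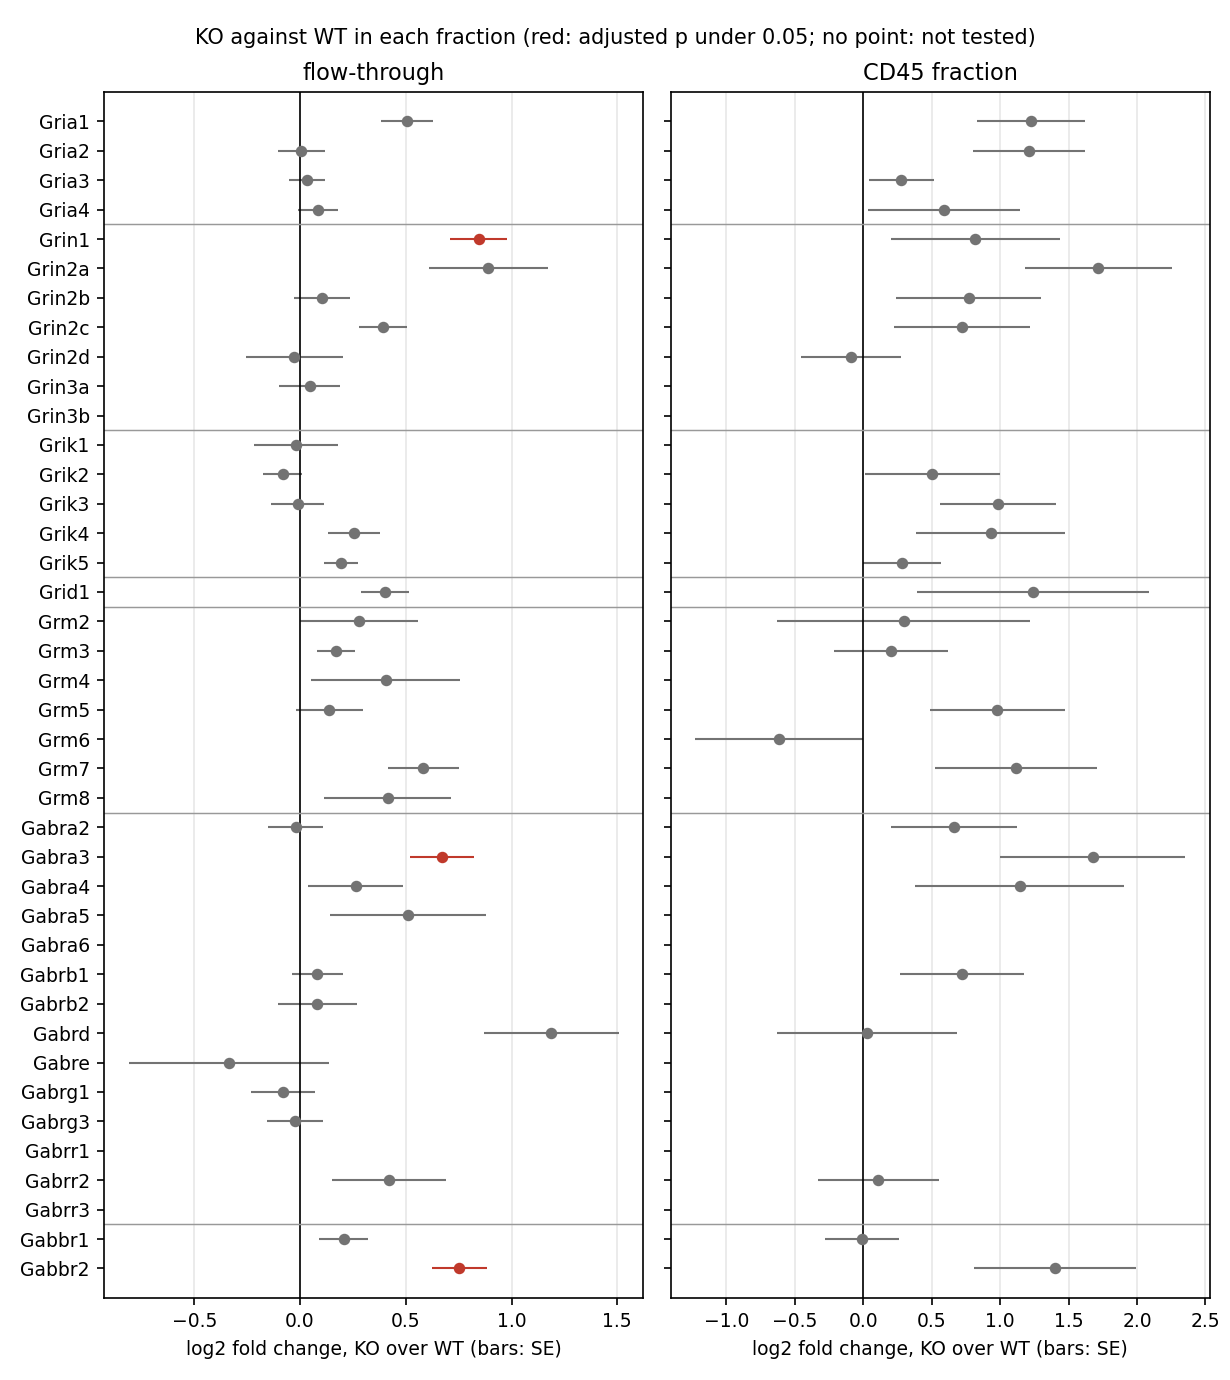
Log2 fold change of KO over WT for the subunits reported, with the SE, in the flow-through (left) and in the CD45 fraction (right). Red marks an adjusted p under 0.05, which only Grin1, Gabbr2 and Gabra3 in the flow-through had, and subunits without a point were not tested.

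Among AMPA receptor subunits, which carry fast excitatory currents, none passed. Gria1 had 17.7, 14.6 and 17.4 CPM in KO and 12.4, 13.1, 10.6 and 10.6 CPM in WT libraries, with no overlap (change of 0.51 log2 units, SE 0.12, adjusted p = 0.0716 by edgeR). Gria2, whose edited product keeps AMPA receptors largely impermeable to calcium, had 114, 102 and 92.0 CPM in KO and 85.2, 102, 115 and 106 CPM in WT libraries. Its groups lay over each other, and the log2 fold change was 0.01 (SE 0.11). Gria4 had 23.5, 22.2 and 21.8 CPM in KO and 20.2, 19.9, 21.6 and 23.1 CPM in WT libraries (change of 0.09 log2 units, SE 0.10), and Gria3 had a log2 fold change of 0.03.

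Of the NMDA receptor genes 6 were tested, and Grin1 alone passed. Grin2c, a subunit of cerebellar neurons and of cortical astrocytes, had 51.9, 44.4 and 57.6 CPM in KO and 43.9, 38.6, 41.3 and 33.1 CPM in WT libraries. Its groups did not overlap, although the gap was narrow (change of 0.39 log2 units, SE 0.11, adjusted p = 0.150 by edgeR). Grin2a, a subunit that becomes prominent in mature synapses, had 9.03, 4.82 and 4.25 CPM in KO and 4.53, 2.99, 2.38 and 3.08 CPM in WT libraries, where 1 WT library lay above the lowest KO library (change of 0.89 log2 units, SE 0.28, adjusted p = 0.211 by edgeR). Grin2b, prominent in immature synapses, had a log2 fold change of 0.10 (SE 0.13), Grin2d of -0.03 (SE 0.23) and Grin3a of 0.04 (SE 0.15).

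No kainate or delta receptor gene passed. Grik5 had 79.8, 85 and 84.1 CPM in KO and 70.1, 77.7, 70.3 and 72.1 CPM in WT libraries, without overlap but with a small difference (change of 0.19 log2 units, SE 0.08, adjusted p = 0.368 by edgeR). Grik3 had 93.2, 99.7 and 88.8 CPM in KO and 74.2, 116, 93.0 and 94.8 CPM in WT libraries, so that the WT range enclosed the KO range (change of -0.01 log2 units, SE 0.13). Grik4 had a log2 fold change of 0.25, and Grik1 and Grik2 lay at -0.02 and -0.08. Among delta receptors, which organise synapses, Grid1 had 18.6, 21 and 20.9 CPM in KO and 17.4, 14.7, 15.5 and 13.5 CPM in WT libraries. The groups were apart (change of 0.40 log2 units, SE 0.11, adjusted p = 0.128 by edgeR).

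All 7 metabotropic glutamate receptor genes tested had a log2 fold change above 0, between 0.14 and 0.58, and none passed. Grm7, a presynaptic receptor, had 11.2, 11.7 and 9.11 CPM in KO and 7.30, 5.15, 8.02 and 7.92 CPM in WT libraries, without overlap (change of 0.58 log2 units, SE 0.17, adjusted p = 0.147 by edgeR). Grm3, a receptor of astrocytes as well as neurons, had 65.3, 59.0 and 67.8 CPM in KO and 59.1, 51.6, 57.3 and 59.8 CPM in WT libraries, with overlap (change of 0.17 log2 units, SE 0.09). Grm5, which couples to phospholipase C, had 22.5, 17.4 and 12.8 CPM in KO and 16.9, 16.7, 15 and 15.3 CPM in WT libraries, where KO libraries lay both above and below WT (change of 0.14 log2 units, SE 0.16).

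Of 14 GABA-A receptor genes tested, 10 had a log2 fold change above 0 and Gabra3 alone passed. Gabrd, the delta subunit of extrasynaptic receptors, had the largest log2 fold change of the members tested in the flow-through, 1.19 (SE 0.32, adjusted p = 0.106 by edgeR), at 1.67, 1.22 and 1.43 CPM in KO and 0.573, 0.396, 0.632 and 0.898 CPM in WT libraries, which rest on 9 to 39 counts each. The log2 fold change was -0.02 for Gabra2, 0.26 for Gabra4 and 0.08 for Gabrb1 and Gabrb2. Gabrg1 lay at -0.08, Gabrg3 at -0.03 and Gabrr2, a rho subunit best known from the retina, at 0.42 (SE 0.27). Grin2d shares 9.66% of its exon bases with a gene on the opposite strand and Grm2 slightly less, and the values of both are uncertain. The widest errors were those of Gabre (-0.34, SE 0.47) and Gabra5 (0.51, SE 0.37), whose levels were under 1.2 CPM in each library.

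Ratios between subunits were compared over libraries with an exact two-sided permutation test, for which 35 splits allow no p below 0.0286. The ratio of Grin2a to Grin2b counts per kilobase was 0.466, 0.351 and 0.299 in KO and 0.332, 0.190, 0.180 and 0.192 in WT libraries (difference 0.76 on the log2 scale, exact p = 0.0857, adjusted over 3 ratios tested 0.129). The ratio of Gria2 to the other 3 AMPA genes differed by -0.16 (exact p = 0.286, adjusted 0.286). No ratio passed, and in each the groups overlapped. After adjustment over 3 ratios, a single ratio at the smallest p could not have passed. That none passed was therefore nearly fixed in advance and says little.

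Markers of excitatory neurons were higher in sum in the same KO libraries, although most single markers did not pass. The 12 markers of excitatory cortical neurons summed to 435 to 678 CPM in KO and 219 to 318 CPM in WT flow-through libraries, without overlap. Of the 12, 3 passed, all higher (Slc17a7, Nptx1 and Cux2), where 1.42% of all genes were called higher. The median log2 fold change was 0.52, and 9 of the 12 were above 0. Rorb, Bcl11b and Slc17a6 had lower means in KO. The largest part of both sums was Camk2a, which did not pass, at 306 ± 106 TMM-scaled CPM in KO and 87.4 ± 29.9 in WT libraries (SD). The 12 pan-neuronal markers summed to 1142 to 1457 CPM in KO and 976 to 1222 CPM in WT libraries, which overlapped, and Nrgn and Syn1 passed, both higher. Of the GABAergic interneuron markers 10 were tested, Cck was higher and Gad2 lower, and the sums overlapped at 229 to 261 CPM in KO and 224 to 266 CPM in WT libraries. The 10 neuroblast markers summed to 728 to 974 CPM in KO and 1074 to 1327 CPM in WT libraries, without overlap, although none passed and each was below 0 (median log2 fold change -0.36). No marker of astrocytes, oligodendrocyte precursors or oligodendrocytes passed, and none of these markers, of neurons or glia, was at 0 in a whole group of the flow-through. In bulk RNA fewer cells of a type and less RNA per cell cannot be told apart.

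**Figure D3:**
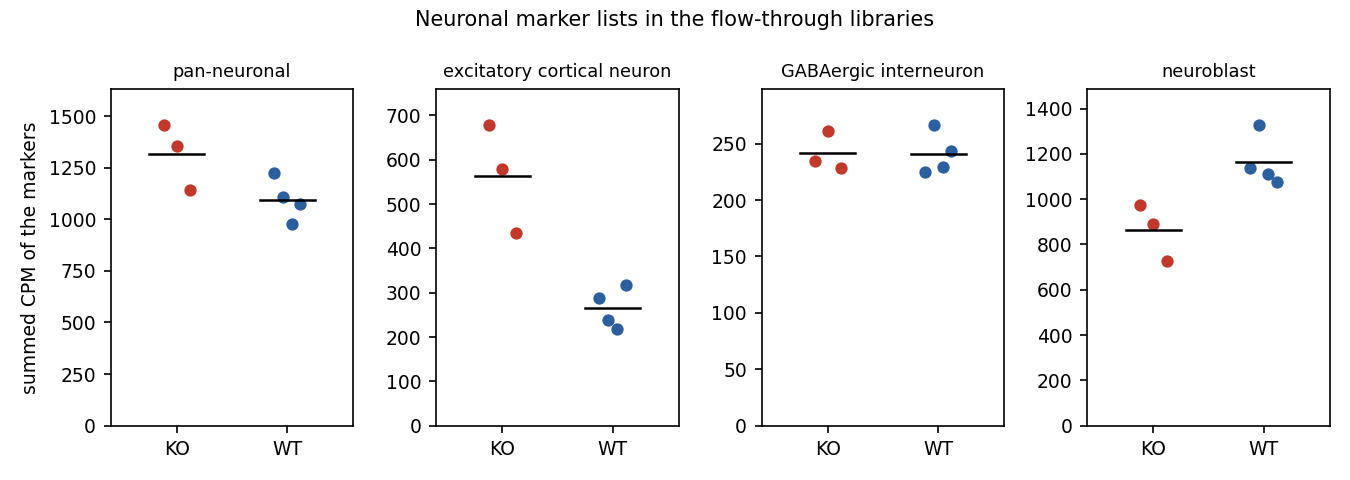
Summed CPM of marker genes of neurons and neuroblasts in each flow-through library, with the group mean as a line. KO libraries lie above WT libraries for excitatory neurons (435 to 678 against 219 to 318 CPM), below them for neuroblasts, and overlap with them for the other lists.

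Set against the pan-neuronal marker counts of the same library, Grin1 stood at 2.02 to 3.04% in KO and 1.59 to 1.85% in WT libraries. Gabbr2 stood at 4.15 to 6.43% in KO and 3.23 to 3.91% in WT libraries, and Gabra3 at 1.01 to 1.08% in KO and 0.730 to 0.850% in WT libraries, so KO libraries lay above WT for each. Of the 12 pan-neuronal markers 10 had a log2 fold change above 0, but the sum rests unequally on them. Map2, the largest, had means of 327 TMM-scaled CPM in KO and 316 in WT libraries. Tubb3 (141 in KO, 165 in WT) and Stmn2 (72.0 in KO, 79.2 in WT) had lower means in KO. Ratios to other choices of these markers were not computed, so the pan-neuronal ratios may depend on that choice. Set against the excitatory neuron markers, Grin1 (4.73 to 7.96% in KO, 5.38 to 7.86% in WT) and Gabbr2 (9.41 to 16.9% in KO, 11.0 to 16.7% in WT) overlapped. Gabra3 was then lower in every KO library, at 2.16 to 2.65% in KO and 2.88 to 3.56% in WT libraries. The largest part of the excitatory sum was 1 marker that did not pass, Camk2a. Its mean was 306 ± 106 TMM-scaled CPM in KO and 87.4 ± 29.9 in WT libraries (SD). Ratios without Camk2a were not computed, so these excitatory ratios, the direction for Gabra3 included, may depend on that marker. The part of the neuronal markers in the subunit differences was not tested.

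The 3 calls depended on the fit. A joint fit of all 14 libraries, with 1 shared estimate of spread, called none of them (edgeR adjusted p between 0.912 and 0.915), with log2 fold changes of 0.86 for Grin1, 0.77 for Gabbr2 and 0.68 for Gabra3. With each library's trend of counts on GC content and exon length removed, Gabra3 passed, and Grin1 (0.66, adjusted p = 0.122) and Gabbr2 (0.64, adjusted p = 0.0807) did not. The longest transcript was 59.4% GC for Grin1, 56.0% for Gabbr2 and 43.1% for Gabra3, against a median of 56.9% over the genes called higher in KO and 49.6% over all genes tested. With the odd library entered as a flow-through WT library none passed. Grin1 passed whichever single library was left out. Gabbr2 was lost without WT replicate 2 (adjusted p = 0.0523), and Gabra3 was lost without KO replicate 1 (0.180), KO replicate 2 (0.148), WT replicate 2 (0.146), WT replicate 3 (0.138) or WT replicate 4 (0.0850).

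Genes that work with the receptors were counted by list. Over all genes tested in the flow-through, 1.42% were called higher and 0.151% lower. Of 20 auxiliary subunits of ionotropic glutamate receptors 4 rose in KO flow-through libraries. These were Cacng3 (change of 1.29 log2 units, SE 0.25), which carries AMPA receptors to synapses, Nrn1 (1.04, SE 0.16), Cnih2 (0.64, SE 0.13) and Olfm1 (0.50, SE 0.10). Shisa6, which keeps AMPA receptors at synapses and is named because it was the only one to fall, had a change of -0.44 log2 units (SE 0.09, adjusted p = 0.0277 by edgeR). Of Nrn1's exon bases 22.3% are shared with another gene, and its value is uncertain. Of 20 scaffold proteins of excitatory synapses 5 rose and none fell, among them Dlgap2 (1.23, SE 0.13), Dlgap3 (1.04, SE 0.10) and Dlgap1 (0.57, SE 0.09), which link scaffolds of the postsynaptic density, and Shank3 (0.88, SE 0.15). The fifth was Dlg4, the core scaffold of that density (0.42, SE 0.09), which the naming rule left out and which was added after its value was seen.

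On the inhibitory side 2 of 19 scaffold and partner genes rose, where 1.42% of all genes were called higher. Iqsec3, an exchange factor of inhibitory synapses, had a log2 fold change of 1.47 (SE 0.19) and Insyn1, a protein of inhibitory synapses, of 0.55 (SE 0.09). Of 11 genes of GABA synthesis, transport and breakdown and of chloride transport, Slc12a5, the neuronal chloride extruder, rose by 1.03 (SE 0.14) and Gad2, which makes GABA, fell (-0.42, SE 0.10, adjusted p = 0.0494 by edgeR). Of 15 genes of glutamate synthesis and transport 1 rose, the vesicular transporter Slc17a7 (1.19, SE 0.21), which is also an excitatory neuron marker. The 3 glycine receptor genes tested did not pass. In the CD45 fraction no gene of these lists passed.

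Levels of different subunits can be compared only per length. In RPKM, which divides the CPM by the exon length in kilobases, averaged over the 7 flow-through libraries, Gabbr1 stood first at 32.2 ± 4.30, then Grm3 at 19.6 ± 1.69 and Grik5 at 14.9 ± 1.23 (SD, n = 7). The library ranges of these 3 did not meet. Grik3 (10.5 ± 1.55), Grin2c (8.79 ± 1.54), Gabbr2 (7.46 ± 2.28) and Gria2 (6.57 ± 0.711) followed, and the ranges of each neighbouring pair among these 4 overlapped. Below them Grik2 (3.47), Gria4 (3.45) and Gria3 (3.38) could not be ordered. At the low end Gabra6 had 3 counts and Gabrr3 had 1 count over all flow-through libraries, and Grm6 had 0.

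In CD45 libraries Gabbr1 was again first at 5.95 ± 1.51 RPKM, above Grik5 (1.19 ± 0.352), Gabbr2 (0.782 ± 0.653) and Grin1 (0.756 ± 0.457, SD, n = 7). The ranges of those 3 overlapped from each gene to the next.

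**Figure D4:**
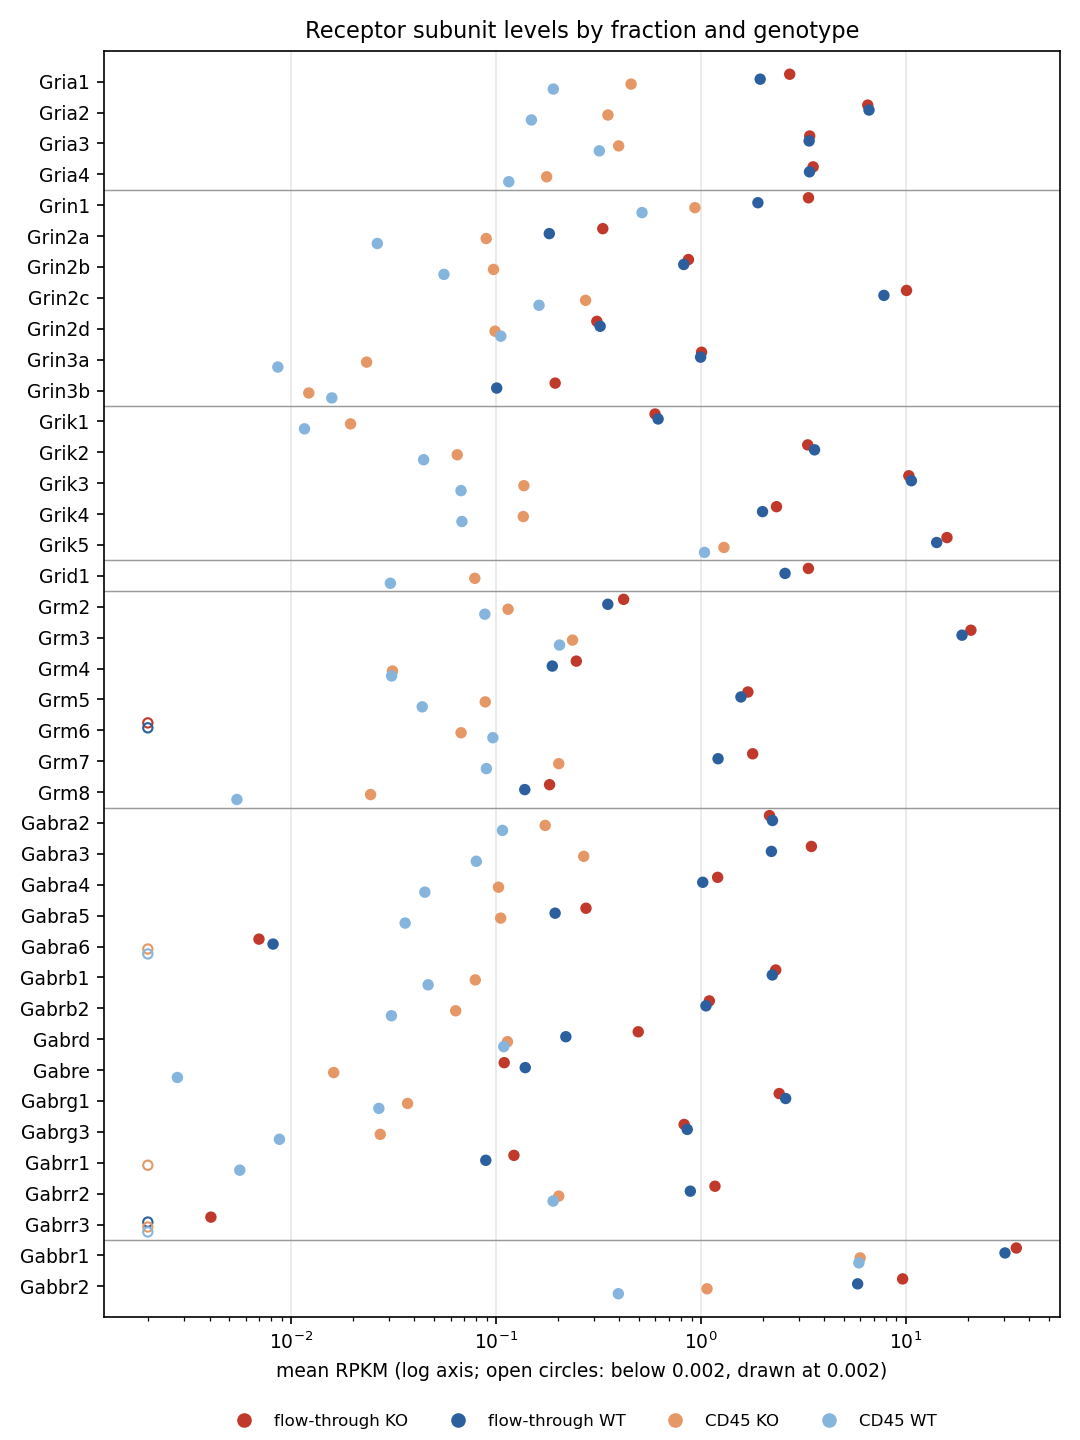
Mean RPKM of the subunits reported (log axis) in KO and WT libraries of the flow-through and of the CD45 fraction, with lines between receptor families. Flow-through levels lie above CD45 levels for nearly all subunits, and for Grm6 they lie below.

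Between fractions, over all 14 libraries, 41 members were tested, of which 39 were higher in the flow-through and 2 lower, where 44.7% of all 18098 genes tested were higher and 41.4% lower. The median log2 fold change of flow-through over CD45 was 3.46 over the members and 0.05 over all genes. Among the largest log2 fold changes were those of Grik3 (6.23, SE 0.17), Grm3 (5.93, SE 0.14), Gabrg1 (5.73, SE 0.31) and Grin3a (5.62, SE 0.26). The smallest among those higher were Gabrd (1.03, SE 0.35), Grin2d (1.08, SE 0.19), Grin1 (1.33, SE 0.32) and Gabra5 (1.36, SE 0.55). Upper-quartile scaling moved the median over all genes to 0.31 and changed no direction of a called member that is named here.

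Grm6, the receptor of retinal ON bipolar cells, was lower in the flow-through and had 0 counts in every flow-through library. Its CD45 counts were 11, 2, 7 and 8 in KO and 6, 12 and 22 in WT libraries. With 0 counts taken as 3 over the whole fraction, Grm6 was at least 22.5-fold lower in the flow-through. The Gm12660 gene on the opposite strand shares 11.0% of its exon bases, so its value is uncertain.

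In the CD45 fraction 31 members were tested for genotype, the other 14 being too low, and none passed in edgeR, where 0% of all 15660 genes did. DESeq2 called none of the members either, though it gave no adjusted p for 36 of the 43 members. Over all 11834 genes to which it gave an adjusted p, it called 1 higher and 8 lower. At an unadjusted p under 0.05 there were 7 members, all higher in KO, where 2.13% of all genes were higher at that level. Of the 31, 27 had a log2 fold change above 0 (54.5% of all genes), with a median of 0.77 against 0.02 over all genes. In Grik3 alone every KO library lay above every WT library, at 0.896, 1.94, 0.883 and 1.14 CPM in KO and 0.462, 0.548 and 0.832 CPM in WT libraries, as in 2.47% of all genes.

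The smallest p-values were those of Grin2a, Gria1 and Gria2. Grin2a had 0.618, 2.22, 1.32 and 2.23 CPM in KO and 0.252, 0.548 and 0.634 CPM in WT libraries (change of 1.72 log2 units, SE 0.54, adjusted p = 0.974 by edgeR). Gria1 had 1.33, 3.08, 2.65 and 3.94 CPM in KO and 0.925, 1.49 and 1.07 CPM in WT libraries (1.23, SE 0.40). Gria2 had 2.44, 8.0, 3.62 and 7.67 CPM in KO and 2.10, 2.50 and 2.42 CPM in WT libraries (1.21, SE 0.41). In each, KO replicate 1 lay within the WT range while KO replicates 2 and 4 were the highest.

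The subunits with the highest CD45 levels did not pass either. Gabbr1 had 30.0, 39.7, 59.8 and 56.0 CPM in KO and 38.9, 38.3 and 62.2 CPM in WT libraries, with wide and overlapping ranges (-0.01, SE 0.27). Grik5 had 3.74, 8.14, 6.01 and 8.75 CPM in KO and 5.26, 4.62 and 6.50 CPM in WT libraries (0.28, SE 0.29). Grin1 had 2.66, 13.6, 8.48 and 11.4 CPM in KO and 2.10, 4.5 and 8.64 CPM in WT libraries (0.82, SE 0.62). These 3 overlapped between genotypes. Gabbr2 had 2.01, 13.9, 6.27 and 6.27 CPM in KO and 1.6, 3.13 and 3.29 CPM in WT libraries (1.40, SE 0.59), and Gabra3 had a log2 fold change of 1.68 (SE 0.68).

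**Figure D5:**
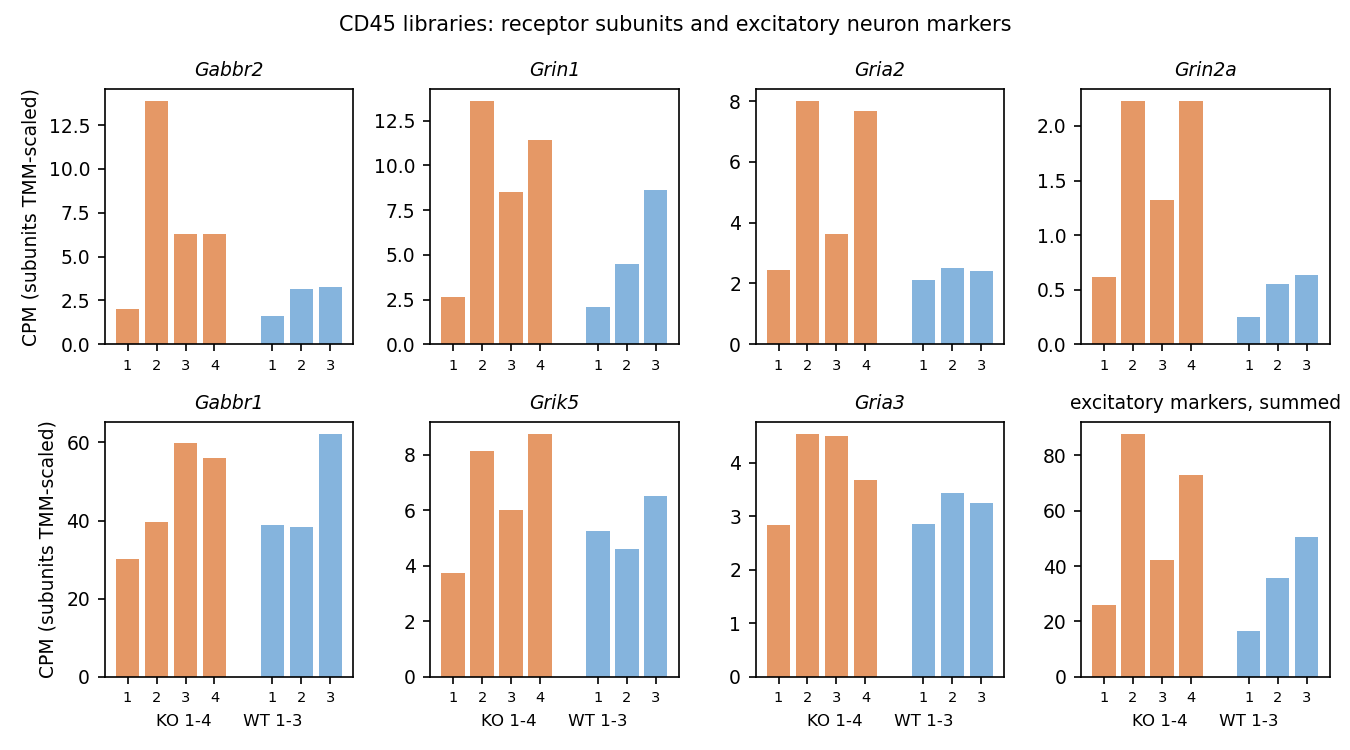
Bars give the TMM-scaled CPM of 7 subunits, and the summed CPM of 12 excitatory neuron markers without TMM scaling, in each CD45 library (KO 1 to 4, then WT 1 to 3). KO replicate 2 is high for Gabbr2, Grin1 and Gria2 and has the highest marker sum, 87.8 CPM.

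Library KO replicate 2 of the CD45 fraction was the highest of the 7 for 19 of the 31 members, and WT replicate 1 the lowest for 15. The shares over all genes are not given, so whether this is particular to the subunits is not known. The excitatory neuron markers summed to 26.1 to 87.8 CPM in KO and 16.6 to 50.3 CPM in WT libraries of this fraction, highest in KO replicate 2 and lowest in WT replicate 1. The pan-neuronal markers summed to 72.8 to 239 CPM in KO and 73.9 to 106 CPM in WT libraries, and none of either list of 12 was at 0 in a whole group. Of the pan-neuronal markers 12 of 12, and of the excitatory markers 8 of the 8 tested, had a log2 fold change above 0, and none passed. The part of neuronal RNA in the CD45 values was not tested. With each library left out in turn the median log2 fold change of the members lay between 0.54 and 1.09.

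Whether the genotype difference itself differed between fractions was tested as an interaction, the flow-through difference minus the CD45 difference. None of 41 members passed in edgeR, where 0% of all 18098 genes did. DESeq2 also called none of the members, though it gave no adjusted p for 7 of the 45. Over all 16349 genes to which it gave an adjusted p, it called 41 higher and 2 lower. At an unadjusted p under 0.05, reached by 7.21% of all genes, there were 3 of the 41 members, a share close to that of all genes. Among them were Gria2 (-1.18, SE 0.42) and Grik3 (-0.98, SE 0.37), both with the smaller difference in the flow-through. The interaction was 0.06 (SE 0.64) for Grin1, -0.61 (SE 0.61) for Gabbr2 and -0.95 (SE 0.63) for Gabra3, so the flow-through calls were not shown to be particular to that fraction.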

How the data were processed

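The library kit was stranded and selected mRNA, with 14 cycles of PCR, according to the labels. The authors deposited raw gene counts, 1 table for each fraction. Companion tables of normalized signal, which the authors made with DESeq2 size factors per the file headers, were not used in the tests. Trim Galore, FastQC, STAR 2.7.9a, DESeq2 and the GRCm38 build are named in the submitters' processing notes. The counting tool and its settings for strand and annotation are not stated in the sources used.

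Symbols, exon lengths and overlaps came from GENCODE M21, which matched 33130 of 33223 genes. The test was edgeR's quasi-likelihood test (version 4.0.16 in R 4.3.3) with TMM scaling and filterByExpr at its minimum of 10 counts per library and 15 summed, within each fraction for genotype and over 14 of 15 libraries for fraction and interaction. P-values were adjusted over all genes tested (Benjamini-Hochberg) and called under 0.05. CPM per library is TMM-scaled within a fraction. RPKM, marker sums and the ranges of summed subunits use unscaled CPM. RPKM divides it by the exon length. Neither scale is set across fractions by TMM, and tests between fractions used TMM over all libraries. DESeq2 1.42.0 was an alternative, and the scripts were tested on simulated data. Within groups, 18 library pairs gave chi-square values of 10.2 to 55.2 per degree of freedom, so no library was a duplicate. Replicate numbers are names only.

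The members, lists and left-out library were chosen with earlier results of these data known. Values per library are given for members called, for the 2 per family with the highest flow-through RPKM and the 1 with the smallest genotype p there, and in CD45 libraries for the 5 with the highest RPKM and the 3 with the smallest p. Gabrd, Grin2a in the flow-through, Grik3 in the CD45 fraction and Grm6 were added after their values were seen. Of other lists, up to 4 called members are named. Counts and medians cover all members, but individual values of some subunits, and a ratio that needs one, are not reported here.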

Additional observations from a re-analysis of the deposited data

Results flagged for a closer look

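Over 30 checks of 1 library against the others of its group, in groups of 4, 1 was past the limit, and chance puts about 1 in 20 groups there. Grin2c was at 2.75 CPM in CD45 KO replicate 4, where the next of the group was at 1.06 CPM. The odd library, labelled flow-through WT and here called replicate 5, is left out of the fits. In it Grm6 was at 0.230 CPM without TMM scaling, against 0 in the other flow-through WT libraries.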

How the results depend on the processing

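Alternatives were RLE or upper-quartile scaling, no filter, DESeq2, a joint fit, removal of GC and length trends, each library left out and the odd library entered as labelled. Of 116 values that answer a comparison 109 kept their side. These include subunit ratios, most of which could not have passed with so few libraries. They also include the counts of 0 in the CD45 fraction and the interaction, so 109 overstates stability. The number of subunits called in the flow-through moved in 6 of 14 alternatives. The number of subunits called in the flow-through, 3, was 5 with DESeq2, 1 with GC and length trends removed (Gabra3), 0 in the joint fit, 0 with the odd library entered as labelled and 9 without a filter, and 1 to 4 with a library left out. The value of 1 came without WT replicate 2 and was Grin1. Entering the odd library as labelled put the median log2 fold change of the subunits at 0.41, against 0.20. Over all genes, the 235 higher and 25 lower calls in the flow-through became 355 and 65 with DESeq2, 148 and 38 with trends removed, 26 and 4 in the joint fit, 492 and 137 without a filter, and 0 with the odd library entered as labelled, and 117 to 253 higher with a library left out. In the CD45 fraction and the interaction 0 subunits were called under every alternative run. Of the values for single subunits 362 kept direction and side, 14 lost and 5 gained the threshold and 11 reversed, none of these past a threshold. Flow-through reversals were Grik3 (0.30) with the odd library entered as labelled, Grik5 (-0.025) with trends removed and Gria2 (-0.0031) with upper-quartile scaling. With a library left out, flow-through log2 fold changes ranged from -0.075 to 0.076 for Gria2, -0.12 to 0.10 for Grik3 and -0.083 to 0.32 for Grm5, and CD45 values from -0.15 to 0.25 for Gabbr1. The cause of these changes was not tested. No paired analysis was possible because the labels give no replicate numbers shared between groups. Libraries of 3 or 4 per group, and counts under 40 per library for Gabrd, Grm6 and other low subunits, limit the precision.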
